A study of Mus musculus with 4 samples.

Results

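DNase-seq of cells labelled as resting T cells was examined at 10 interferon-stimulated genes out of 21938 protein-coding gene models. These genes are Isg15, Ifit1, Ifit2, Ifit3, Mx1, Oasl1, Oasl2, Rsad2, Usp18 and Bst2. They were taken by name from the GENCODE mouse models, and all 10 were found. DNase-seq sequences the ends left where DNase I cuts accessible DNA, so a peak marks an open stretch of chromatin. By their label, the cells were naive resting T cells of the alpha-beta, CD8-positive lineage, which give rise to cytotoxic T cells. They came from virgin female B6CASTF1/J mice aged 2 months, first-generation hybrids of C57BL/6J and the wild-derived strain CAST/EiJ. The 4 libraries are labelled biological replicates 1 to 4 of 1 group. They come from separate biosamples with a single donor identifier, so the spread and every p-value over libraries measure these libraries and not animals. No sample was treated with interferon, and nothing here measures induction.

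Type I interferons bind a receptor on nearly every cell and, through the kinases JAK1 and TYK2, activate a complex that holds STAT2 and IRF9. That complex binds a repeat of the letters GAAA in the promoters of interferon-stimulated genes, and IRF proteins on their own bind similar letters. The genes then encode proteins that block viruses (the IFIT and MX families, RSAD2, BST2), sense or modify RNA and proteins (the OAS-like proteins, ISG15), or end the response (USP18). In T cells the same pathway shapes survival and expansion during infection.

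The promoter sequences are shown first, because later paragraphs refer to positions of the GAAA repeat. The IRF-type motif searched here was GAAA, any 2 bases, GAAA, on either strand, and its matches are in capitals; overlapping matches run together. Each line gives up to 170 bases before the 5' start of the gene, read in the direction of the gene, from the RefSeq FASTA of GRCm38 at the GENCODE start; the Ifit1 line holds 127 bases because a neighbouring transcript lies before them.
Usp18 (chr6:121245736-121245905, plus strand): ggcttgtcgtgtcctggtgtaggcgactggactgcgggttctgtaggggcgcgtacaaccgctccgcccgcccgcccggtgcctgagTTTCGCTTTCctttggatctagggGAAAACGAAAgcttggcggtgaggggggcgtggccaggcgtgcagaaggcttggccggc
Rsad2 (chr12:26456453-26456622, minus strand): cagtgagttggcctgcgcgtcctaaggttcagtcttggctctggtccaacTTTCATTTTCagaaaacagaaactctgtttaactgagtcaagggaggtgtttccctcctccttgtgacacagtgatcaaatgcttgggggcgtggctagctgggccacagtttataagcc
Bst2 (chr8:71537457-71537626, minus strand): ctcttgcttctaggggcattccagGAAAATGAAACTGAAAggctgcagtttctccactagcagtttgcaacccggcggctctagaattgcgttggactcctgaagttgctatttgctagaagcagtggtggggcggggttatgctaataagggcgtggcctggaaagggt
Isg15 (chr4:156200819-156200988, minus strand): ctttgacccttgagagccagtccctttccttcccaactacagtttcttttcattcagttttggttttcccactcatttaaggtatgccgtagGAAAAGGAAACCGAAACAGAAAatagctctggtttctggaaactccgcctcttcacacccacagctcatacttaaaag
Ifit1 (chr19:34640744-34640870, plus strand): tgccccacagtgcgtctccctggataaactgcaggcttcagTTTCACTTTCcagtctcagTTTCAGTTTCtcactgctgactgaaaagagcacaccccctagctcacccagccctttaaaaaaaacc
Ifit3 (chr19:34583361-34583530, plus strand): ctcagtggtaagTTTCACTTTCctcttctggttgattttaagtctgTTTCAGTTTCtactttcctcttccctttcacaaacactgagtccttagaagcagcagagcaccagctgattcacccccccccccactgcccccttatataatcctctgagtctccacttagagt
Mx1 (chr16:97462908-97463077, minus strand): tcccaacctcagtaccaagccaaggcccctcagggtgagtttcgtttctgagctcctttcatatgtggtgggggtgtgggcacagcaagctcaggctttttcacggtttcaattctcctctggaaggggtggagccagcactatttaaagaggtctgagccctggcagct

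Positions are counted from 0 at the 5' start of the gene, with upstream bases negative. Usp18 had matches at -83 to -74 and -59 to -50, Ifit1 at -86 to -77 and -67 to -58, and Ifit3 at -158 to -149 and -124 to -115. Isg15 held 3 overlapping matches between -78 and -57, Bst2 held 2 overlapping matches between -146 and -131, and Rsad2 had 1 match at -120 to -111. These 6 of the 10 genes had a match in the 300 bases from 250 before the start to 50 after it, against 3.55% of all protein-coding genes. Of the 10, 5 had at least 2 matches there, against 0.292% of protein-coding genes. Mx1 is shown for contrast: it had no match, but its units stand 1 base apart at -131 to -123. Ifit2, Oasl1 and Oasl2 had no match in this window. The nearest match of Oasl1 was at -273 to -264, and Oasl2 held matches at 533 to 542 and 562 to 571, downstream of its start. The STAT-type motif (TTC, any 3 bases, GAA) was found in 2 genes, Ifit2 at -241 to -233 and Bst2 at -152 to -144, next to and overlapping its IRF-type matches, against 8.39% of all protein-coding genes. A match describes letters of the C57BL/6J reference and does not show that a factor was bound, and the CAST/EiJ alleles were not read.

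The libraries differed in depth and at marker genes. A promoter counted as open, or called, in a library when a deposited peak lay within 1 kb of any annotated start of the gene. The longer peak lists, used here, held 20647 (replicate 4) to 70552 (replicate 2) peaks, and the smallest step between peak heights gave 24.3 to 109 M tags. Cd8a, which encodes a chain of the CD8 coreceptor, had a promoter peak in replicates 1 and 2 and none in the libraries labelled replicates 3 and 4. Cd8b1, the partner chain, was called in all 4. Of 2 helper T cell genes, Cd4 was called in none and Zbtb7b in all 4, at 0.251 and 0.358 times the median height of shared sites in replicates 1 and 2 and at 0.746 and 1.12 times in replicates 3 and 4. Replicates 1 to 4 called the promoters of 12, 12, 11 and 5 of 12 T cell markers, and of 6, 5, 7 and 5 of 8 B cell markers. The B cell gene Cd79a was called only in replicates 3 and 4, at 0.347 and 0.684 times the median height of shared sites. Pax5, which directs the B lineage, stood at 0.584 and 0.648 in replicates 1 and 2 and at 1.02 and 1.67 in replicates 3 and 4. Markers of natural killer cells were called in 0, 0, 1 and 0 of 5 cases, and those of myeloid cells in 3, 3, 3 and 0 of 6. Over all protein-coding genes the shares called were 58.3%, 58.4%, 56.7% and 46.2% in replicates 1, 2, 3 and 4. The part of other cell types in the results was not tested, so counts are also given for replicates 1 and 2 alone.

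Of the 10 promoters, 8 were open in at least 3 of the 4 libraries, against 55.2% of all protein-coding genes. All 4 libraries called Usp18 and Rsad2 (2 of 10, against 45.8%), and no library called Ifit3 (1 of 10, against 39.2%). By library, 9, 9, 8 and 2 of the 10 were called, against 58.3%, 58.4%, 56.7% and 46.2% of all protein-coding genes in replicates 1, 2, 3 and 4. Replicates 1 and 2 alone both called 9 of 10, against 56.6% of protein-coding genes. On these longer lists the share for the 10 genes thus lay above the background in replicates 1 to 3 and below it in replicate 4. With the same number of tallest peaks in every library, 4 of 10 were called in at least 3 libraries, against 44.4%.

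The open promoters of these genes were low among open promoters. To compare libraries, each height was divided by the median that its own library had at sites shared by all 4 lists (relative height), and an uncalled promoter was given 0. The median over the 10 genes of the mean relative promoter height was 0.269, and it was 0.353 in replicates 1 and 2 alone. Over all protein-coding genes, uncalled ones included, it was 0.220. Among called promoters the 10 genes were on the low side: the 8 called in at least 3 libraries had a median of 0.377, against 1.31 for all protein-coding promoters so called, and 0 of the 10 lay above 1.31. Among those promoters, the 8 called genes ranked from percentile 7.4 (Ifit1) to percentile 45.7 (Usp18). The plot of promoter heights shows this order and the 0 values of replicate 4.

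**Figure D1:**
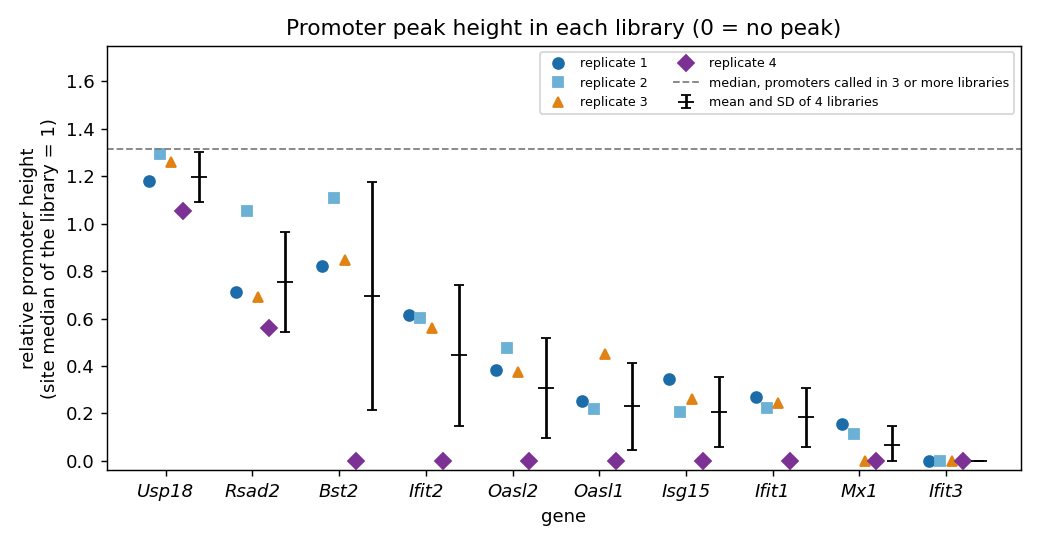
Relative height of the tallest promoter peak (vertical axis; 1 is the library's median at sites called in all 4 libraries) for each gene, with 1 symbol per library, and the mean with its SD over 4 libraries in black (cut at 0). Usp18 and Rsad2 have a peak in all 4 libraries, 6 genes are at 0 only in replicate 4, Mx1 is at 0 in replicates 3 and 4, and Ifit3 is at 0 in all.

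Usp18 removes ISG15 from proteins and blocks signalling at the interferon receptor, and had the highest promoter of the 10. It lies on GRCm38 chromosome 6 from 121245906 to 121270917 on the plus strand. Its relative heights were 1.18, 1.29, 1.26 and 1.05 in replicates 1, 2, 3 and 4 (mean 1.20 ± 0.107, SD, n = 4). The libraries lay close together, and replicate 4 was lowest. Against the median called promoter of the same library, Usp18 differed by a mean of -0.12 ± 0.32 (SD, n = 4) on the log2 scale (exact sign-flip permutation test, two-sided, p = 0.75, and p = 0.75 adjusted over 2 genes). It was above that median in replicate 2, equal to it in replicate 1 and below it in replicates 3 and 4. The sign of the mean log2 difference turned without replicate 4, to 0.030. The 4 libraries allow no two-sided p below 0.13.

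Rsad2 encodes viperin, an enzyme that makes a chain-terminating nucleotide against viral polymerases. It lies on chromosome 12 from 26442746 to 26456452 on the minus strand. Its promoter stood at 0.711, 1.05, 0.691 and 0.561 from replicate 1 to replicate 4 (mean 0.754 ± 0.210, SD, n = 4), with replicate 2 apart from the others on the high side. It was below the median called promoter in 4 of 4 libraries, by a mean log2 difference of -0.82 ± 0.56 (SD, n = 4; exact sign-flip permutation test, two-sided, p = 0.13, adjusted p = 0.25), which does not pass 0.05. Usp18 and Rsad2 did not overlap in replicates 1 to 3, but over 4 libraries the lowest Usp18 value, 1.0526, fell just under the highest of Rsad2, 1.0533.

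Bst2 encodes tetherin, which holds budding virus on the cell surface, and lies on chromosome 8 from 71534255 to 71537456 on the minus strand. Its relative heights were 0.820, 1.11, 0.849 and 0 (mean 0.694 ± 0.481, SD, n = 4). In replicates 1 to 3 it was higher than Rsad2 in 3 of 3 libraries, so its place below Rsad2 in the order rests on replicate 4. Of 1636 promoters within 20% of the mean height of Bst2 in replicates 1 to 3, 92.5% were called in replicate 4, while Bst2 was not.

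The other genes uncalled in replicate 4 were lower. Ifit2, a protein that binds RNA and slows translation, had 0.616, 0.604, 0.560 and 0 (mean 0.445 ± 0.298, SD, n = 4), with replicates 1 to 3 almost level. Oasl2, an OAS-like protein that can act in RNA sensing, had 0.382, 0.476, 0.375 and 0 (0.308 ± 0.211), and this value belongs to an internal annotated start 5.71 kb into the gene. Of its sites called in at least 3 libraries, the one nearest its 5' start, at 0.447 kb, had 0.267, 0.190, 0.189 and 0. Its paralogue Oasl1, a repressor of Irf7 translation, had 0.251, 0.219, 0.450 and 0 (0.230 ± 0.184), with replicate 3 highest.

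Isg15, the ubiquitin-like modifier, lies on chromosome 4 from 156199424 to 156200818 and had 0.347, 0.208, 0.261 and 0 (0.204 ± 0.147, SD, n = 4). Ifit1, which binds viral RNA with a foreign 5' end, had 0.269, 0.221, 0.244 and 0 (0.183 ± 0.124). The Ifit1 site also holds the start of Ifit1bl2, an Ifit1-like gene on the other strand, and the peak cannot be assigned to either. Mx1, a GTPase against influenza virus, had 0.156, 0.112, 0 and 0 (0.0670 ± 0.0793). The ranges of every pair of neighbours in the order of means overlapped over 4 libraries. In replicates 1 to 3 the ranges of Bst2 and Ifit2, of Ifit2 and Oasl2, and of Ifit1 and Mx1 did not overlap, while those of Oasl2, Oasl1, Isg15 and Ifit1 did between neighbours.

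The values of 0 in replicate 4 can be read against other promoters of the same height. Replicate 4 listed no peak below a relative height of 0.158, against 0.0152 to 0.0241 in the others. Of all protein-coding promoters within 20% of a gene's mean height in replicates 1 to 3, replicate 4 called 28.5% for Ifit1, 34.8% for Isg15, 41.3% for Oasl1, 52.8% for Oasl2 and 75.0% for Ifit2. For the 2 genes that replicate 4 did call, the shares were 88.0% (Rsad2) and 97.8% (Usp18). A missing peak in replicate 4 was thus frequent among promoters as low as Ifit1, Isg15 and Oasl1, and infrequent among those as high as Ifit2 and Bst2. The part of depth and of cell content in these values was not tested.

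Ifit3, a partner of other IFIT proteins, had no promoter peak in any library despite its 2 motif matches. It lies on chromosome 19 from 34583531 to 34588731 between Ifit2 and Ifit1. Within 1 kb of its start, intervals with a cut rate above background (deposited at a false discovery rate, FDR, under 0.05) covered 26 bp in replicate 3, with a lowest FDR of 0.0274, and 0 bp in the other libraries. Only 25.1% of the 32-base words in the 200 bases on each side of its start occurred once in the genome. Repeated words were found again at the start of Ifit3b, a near copy on chromosome 19 between 34607727 and 34608116. A short read within such words has 2 places, so the values of Ifit3 and Ifit3b are uncertain. Ifit3b was called in replicate 1 only, at 0.244.

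At the other starts the sequence was mostly unique: 100% of words occurred once at 7 of the 10 genes, 92.2% at Mx1 and 88.1% at Isg15. Cut-rate intervals gave the same 8 of 10 promoters in at least 3 libraries, against 56% of protein-coding genes. They covered 825, 859, 1112 and 401 bp at Usp18 and 684, 502, 726 and 231 bp at Rsad2 in replicates 1 to 4. Medians over called promoters were 1148, 1019, 1067 and 558.5 bp. Mx1 had 443, 231, 0 and 0 bp. The order by covered length was not that by peak height: in replicate 1 Oasl2 (1256 bp) and Ifit2 (967 bp) stood above Usp18.

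Of the 10 starts, 9 had a CpG ratio (observed to expected) of 0.5 or less, as did 48.3% of all protein-coding genes. CpG is the dinucleotide that most constitutively open mammalian promoters are rich in. The ratio in the 300 bases around the start was lowest at Ifit3 (0.0554), followed by Mx1 (0.143) and Ifit1 (0.202), and highest at Usp18 (0.755), the gene with the highest promoter. Ifit2 (0.480) and Bst2 (0.491) lay at percentiles 47.0 and 47.7 of all protein-coding genes. The median was 0.334 against 0.525 over all protein-coding genes. Of the 9 genes with a ratio of 0.5 or less, 7 had a promoter called in at least 3 libraries, against 26.1% of the 10592 protein-coding genes with such a ratio. Above that ratio 82.4% of protein-coding promoters were called, as was Usp18.

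**Figure D2:**
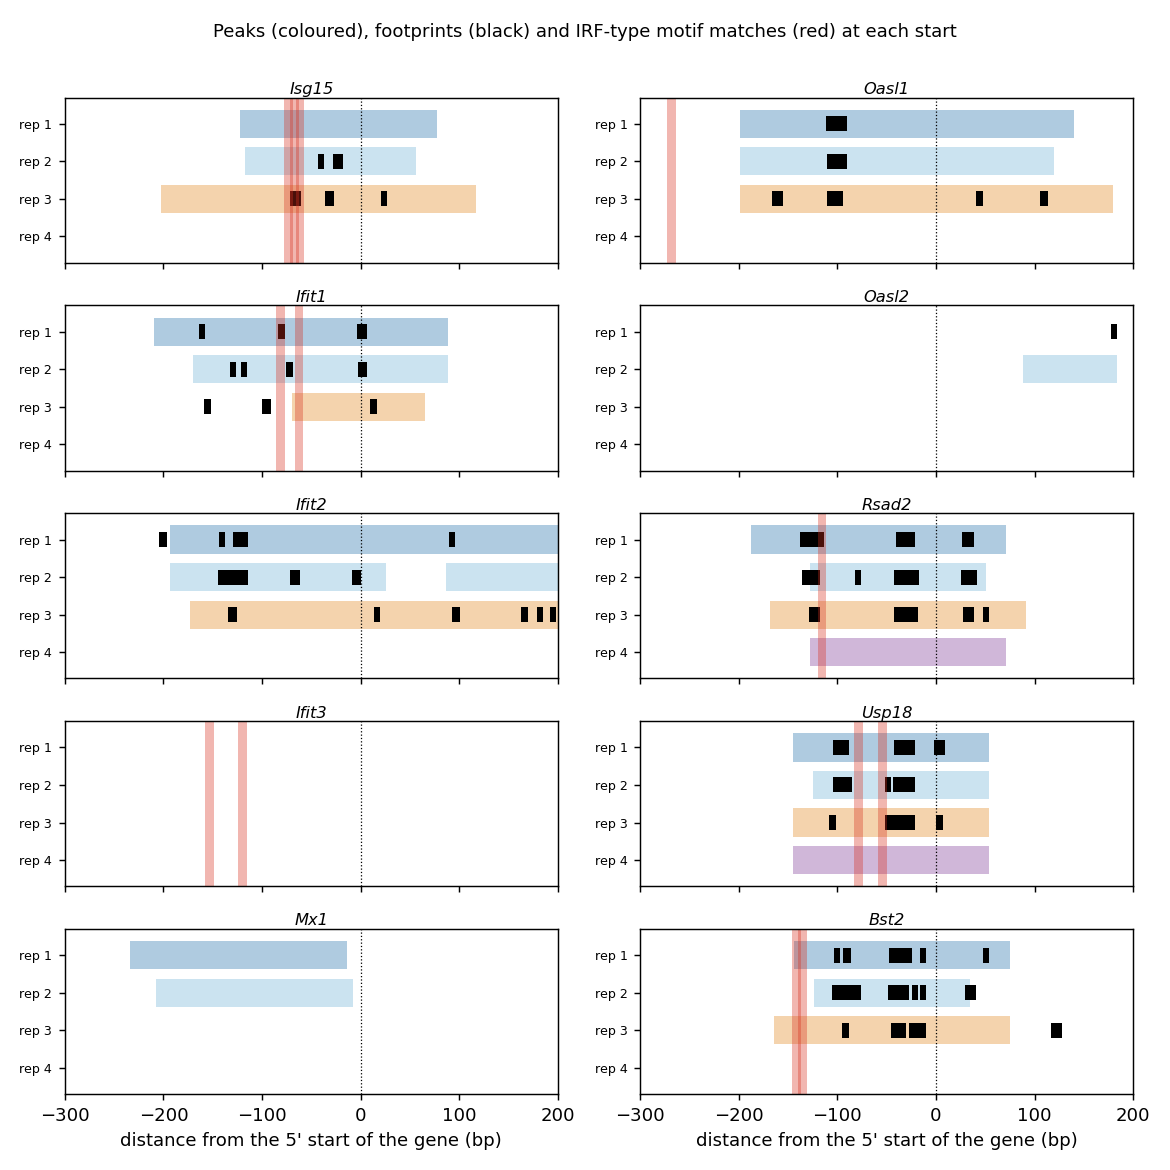
Extent of peaks (coloured bars, 1 row per library), footprints (black) and IRF-type motif matches (red bands) by distance in bp from the 5' start of each gene (dotted line), from 300 before to 200 after. Matches lie inside peaks of at least 2 libraries at Isg15, Ifit1, Rsad2 and Usp18 and near the edge of peaks at Bst2, while the matches at Ifit3 lie under no peak.

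Many motif matches lay within open sites, but those of Ifit3 lay under no peak and that of Oasl1 at -273 to -264 lay outside its site. Of the 8 called genes, 6 had an IRF-type match inside a promoter site, against 5.38% of 12087 protein-coding genes with such a site. They were Isg15, Ifit1, Rsad2, Usp18, Bst2 and, at its site downstream of the start, Oasl2. The matches of Usp18 and Rsad2 were under a peak in 4 of 4 libraries, those of Isg15 in 3, and those of Bst2 in replicates 1 and 3. Of 778 protein-coding genes with a match in the 300 bases, 49.5% were called in at least 3 libraries, against 55.2% of all protein-coding genes. Genes with and without a match were not compared at like CpG ratio, so the part of the motif was not tested. Of the 64 genes with 2 or more matches, 64.1% were called, and of the 5 such genes here, 4 were.

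Footprints are short stretches inside open DNA where DNase I cuts less than around them, as under a bound protein; all those deposited stand at an FDR of 0.01. Of the 10 genes, 7 had a footprint in a promoter peak in at least 3 libraries, against 52.5% of protein-coding genes. Both shares depend on the promoter being called, as 8 of the 10 and 55.2% of protein-coding genes were. Among protein-coding promoters called in replicates 1, 2 and 3, 96.2%, 95.0% and 95.9% held a footprint. The 7 of 8 called genes were thus no excess over called promoters. Usp18 had 8, 7, 7 and 0 in replicates 1 to 4 over all its annotated starts, of which 3, 3, 3 and 0 lay in the site at its 5' start. Ifit2 had 3, 4, 7 and 0, and Bst2 had 5, 5, 3 and 0. Isg15 had 0, 2, 3 and 0, and Ifit3 and Mx1 had none. Replicate 4 had no footprint at any of the 10, 2 of which it called, although 80.2% of the promoters it called held one.

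A footprint lay over an IRF-type match, within 5 bp, in at least 2 libraries at Rsad2, Usp18 and Ifit1 (3 of the 6 genes with a match in a site), against 31.7% of 650 protein-coding genes with such a match. At Rsad2 the footprints at -138 to -114, -136 to -118 and -129 to -118 in replicates 1, 2 and 3 began upstream of the match and covered part of it. At Usp18 the footprints at -52 to -46 in replicate 2 and -52 to -21 in replicate 3 touched the end of the downstream match. Footprints at -104 to -88 and -104 to -85 in replicates 1 and 2 stopped short of the upstream match. At Ifit1 the footprint of replicate 1, at -84 to -77, lay on the upstream match. Those of replicates 2 and 3, at -76 to -69 and -100 to -91, lay beside it, so that without the 5 bp margin the count was 2 of 6. At Isg15 only replicate 3 had a footprint over the overlapping matches, at -72 to -61. Bst2 and Oasl2 had none over theirs.

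The wider loci, each the gene with 25 kb on both sides, held a median of 4 sites called in at least 3 libraries, against 3 over all protein-coding genes. Bst2 had 9, Ifit2 had 5, and Ifit3 and Mx1 had 1 each. The loci held 36 such sites: 10 at the genes' own annotated starts, 11 at starts of other protein-coding genes and 15 distal, that is, over 1 kb from any such start. Of the 15 distal sites, 4 were called in all 4 libraries. The median mean relative height was 0.347 for the 15 distal sites, against 0.263 for all 23887 distal sites. For the 10 sites at own starts it was 0.377, against 0.703 for all 17341 promoter sites. In the map of sites by distance, the tallest site by mean height was not at the gene's own start at 8 of the 10 loci, the exceptions being Usp18 and Rsad2. A distal site exceeded the mean of the promoter at 7 of the 9 loci that had one, Ifit3 and Mx1 among them, where the only site was distal and low. Oasl1 and Oasl2 share their distal site, so these loci are not all separate cases. The same counts over all protein-coding loci were not made, so whether they are unusual was not tested.

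**Figure D3:**
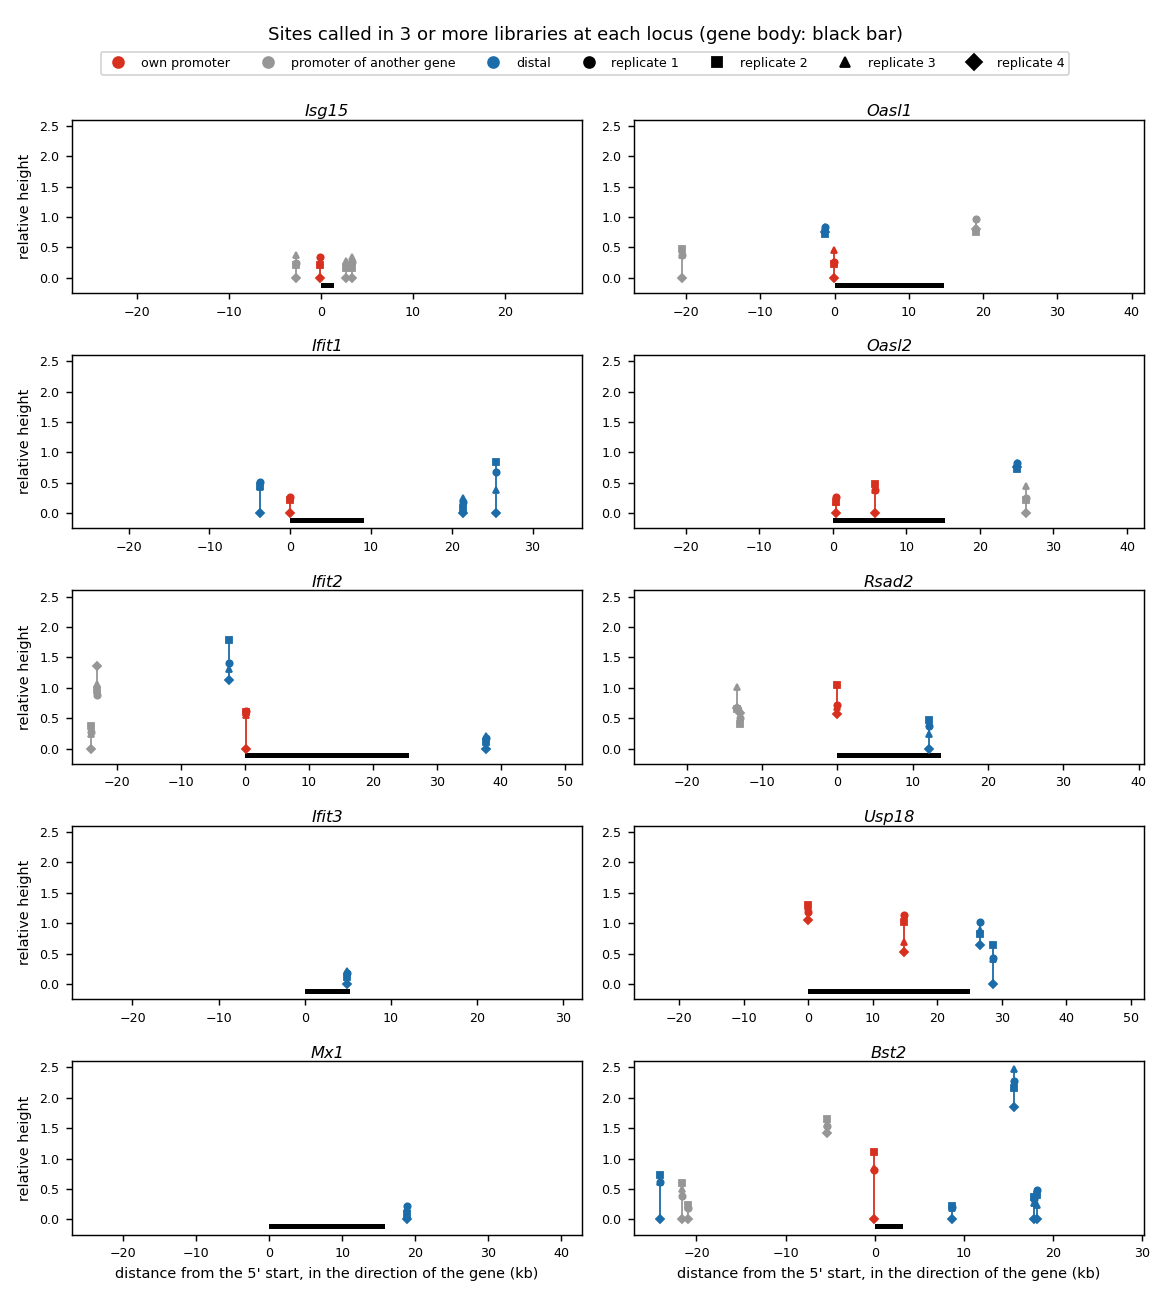
Relative height in each library (symbols) of every site called in at least 3 libraries, by distance in kb from the 5' start in the direction of the gene, for sites at the gene's own starts (red), at starts of other genes (grey) and distal (blue). The tallest distal site stands above the promoter by mean height at 7 of the 9 loci with a distal site. Oasl1 and Oasl2 share theirs. It stands below the promoter at Usp18 and Rsad2, and Isg15 has none.

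The sequences of 2 strong sites outside the 5' starts, called in all 4 libraries, are shown with matches to searched patterns in capitals. The Ifit2 upstream site holds a match to the loose AP-1-type pattern TGANTCA, in which any middle base was allowed and is here T. A CTCF-type match lies in the Usp18 internal site. AP-1 is a factor of cell activation, and CTCF shapes chromatin loops. These matches do not show which factor, if any, was bound, and close variants of the patterns were not searched. Sequence is again from the RefSeq FASTA of GRCm38.
Ifit2 upstream site (chr19:34548081-34548260, plus strand): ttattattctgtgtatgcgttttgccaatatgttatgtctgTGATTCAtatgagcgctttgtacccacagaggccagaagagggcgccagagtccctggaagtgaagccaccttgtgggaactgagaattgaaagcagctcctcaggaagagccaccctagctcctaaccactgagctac
Usp18 internal site (chr6:121260661-121260840, plus strand): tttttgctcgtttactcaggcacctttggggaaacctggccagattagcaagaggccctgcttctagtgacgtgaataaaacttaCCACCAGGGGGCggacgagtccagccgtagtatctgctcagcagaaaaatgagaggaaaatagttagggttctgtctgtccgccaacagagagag

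The Ifit2 upstream site, centred at -2.52 kb in intergenic DNA, reached 1.41, 1.79, 1.31 and 1.12 from replicate 1 to replicate 4 (mean 1.41 ± 0.282, SD, n = 4). Its values did not overlap those of the Ifit2 promoter, and it was taller in 4 of 4 libraries. It held 2, 5, 3 and 2 footprints, while the Ifit2 promoter peak was absent in replicate 4. The Oasl1 distal site, at -1.23 kb on chromosome 5 between 114921803 and 114922220 and in an intron of the transcript Gm13822, had 0.83, 0.724, 0.832 and 0.754 (0.785 ± 0.0541). This too exceeded the promoter in 4 of 4 libraries without overlap. Both lie close enough that a promoter window of 2.5 kb would take them in, and the means would then be 1.41 for Ifit2 and 0.785 for Oasl1.

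The tallest distal site of all was at 15.6 kb from Bst2, on chromosome 8 between 71521761 and 71521960, over an exon of Ccdc194. It had 2.27, 2.16, 2.48 and 1.84 (mean 2.19 ± 0.265, SD, n = 4), above the Bst2 promoter in every library, and held none of the 6 motifs searched in its central 200 bases. The nearest gene start upstream of Bst2 was Mvb12a, a sorting-complex subunit, with 1.54, 1.65, 1.56 and 1.42. At Usp18 the order was the other way. Its tallest distal site, at 26.7 kb on chromosome 6 between 121272361 and 121272800, had 1.01, 0.83, 0.887 and 0.649. The Usp18 promoter exceeded it in 4 of 4 libraries by a mean log2 difference of 0.52 ± 0.21 (SD, n = 4; exact sign-flip permutation test, two-sided, p = 0.13), the smallest p the design allows. Usp18 was the only gene with both kinds of site in all 4 libraries and so the only one tested.

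The Usp18 internal site, at 14.8 kb near an alternative start, had 1.13, 1.01, 0.684 and 0.526. Replicates 3 and 4 were lower there than replicates 1 and 2. Rsad2 shares its neighbourhood with Cmpk2, a nucleotide kinase that is itself interferon-induced. The taller of the 2 Cmpk2 start sites, at -13.3 kb from Rsad2, had 0.664, 0.646, 1.01 and 0.667. At Ifit1, distal sites at -3.72 kb (0.513, 0.442, 0.433 and 0) and at 25.5 kb (0.671, 0.848, 0.378 and 0) were both above its promoter in replicates 1 to 3. The only site of the Ifit3 locus lay over the untranslated end of Ifit3 at 4.87 kb, with 0.182, 0.109, 0.210 and 0, and 68.1% of its words were unique. In the central 200 bases of the 15 distal sites the IRF-type motif occurred in 1 (2.92% of all distal sites), AP-1 in 2 (6.56%), the RUNX motif TGTGGTT in 2 (9.44%), the ETS motif CCGGAAG in 2 (2.93%), CTCF in 1 (15.8%) and the STAT-type motif in 0 (5.69%).

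Promoters of the interferon pathway upstream of these genes ranged widely in height. For the counts below, 55.2% of all protein-coding genes were called in at least 3 libraries and 45.8% in all 4. All 6 transducers were called in all 4 libraries, with a median mean relative height of 1.33. Jak1, the receptor kinase, reached 2.69 ± 0.516 (SD, n = 4), Irf9, the DNA-binding part of the STAT complex, 2.59 ± 0.581, and Stat2 1.48 ± 0.12. Of the 6 receptor genes, 6 were called in at least 3 libraries: Ifngr1 at 3.23 ± 0.238 and Ifnar1, a chain of the type I receptor, at 2.79 ± 0.211 were highest, and the shared chain Il10rb had 0.800 ± 0.511, but the list's median was 0.624 and its lowest member stood at 0.145. All 7 interferon regulatory factors were called in at least 3, led by Irf3 (2.97 ± 0.549), Irf1 (2.82 ± 0.123) and Irf2 (1.69 ± 0.187), with a median of 1.23 and a lowest value of 0.184. The 9 negative regulators were called in all 4 libraries with a median of 2.08, led by Tnfaip3 (3.66 ± 0.605), Pias1 (3.19 ± 0.256) and Socs1 (2.90 ± 0.205).

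Among 13 sensors and adaptors, 11 were called in at least 3 libraries, against 55.2% of all protein-coding genes, with a median of 0.406. Myd88 (1.64 ± 0.210), Mavs (1.61 ± 0.325) and Tbk1 (1.37 ± 0.242), which relay the signal of several sensors, were highest. The interferon genes themselves were the least open, with 0 of 10 called in at least 3 libraries, against the same 55.2%. Whether the sequence at their starts is unique in the genome was not examined, so a missing peak there is uncertain. Ifna1 and Ifna2 had no peak in any library, and Ifng was called in replicates 1 and 2 only, at 0.156 and 0.170. Of 60 other interferon-stimulated genes found in the annotation, 48 were called in at least 3 libraries, against 55.2% of all protein-coding genes. All 4 libraries called 24 of the 60, against 45.8%. The median of the 60 was 0.339, close to that of the 10. The 60 ranged from Ifi44 and Ifitm1, with no peak, to Znfx1 (2.82 ± 0.682) and the shared start region of Tap1 and Psmb9 (3.43 ± 0.339), which serve antigen presentation. An IRF-type match lay near the start of 23 of these 60, against 3.55% of all protein-coding genes. These lists were chosen with earlier results known, and their differences were not tested.

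**Figure D4:**
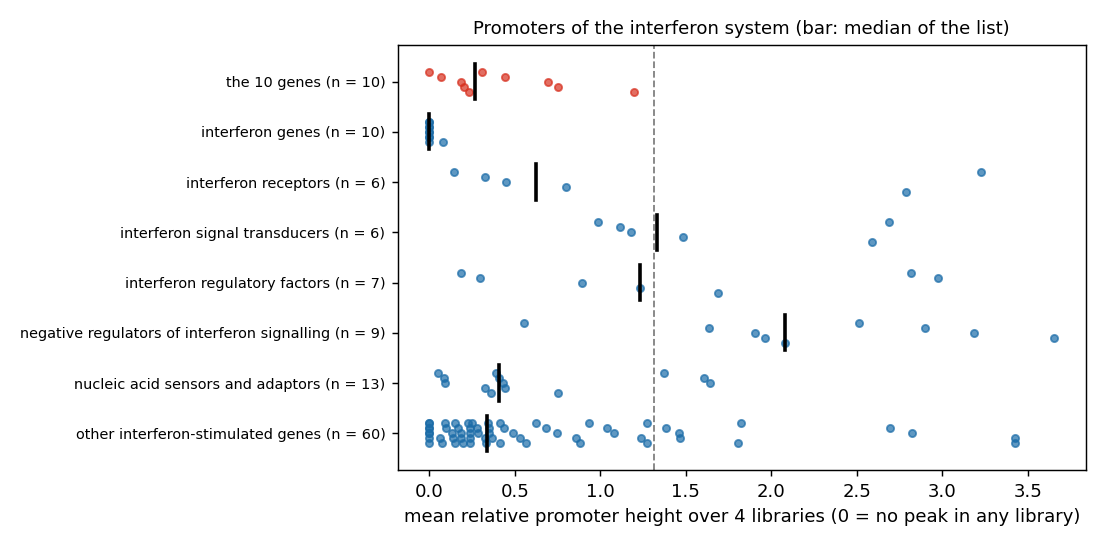
Mean relative promoter height over 4 libraries (horizontal axis, 0 where no library had a peak) of each gene in the 10 (red) and in the other lists of the interferon system (blue), with the list median as a black bar and the median of promoters called in at least 3 libraries as a dashed line. The 10 genes all lie left of the dashed line, and the negative regulators have the highest median, 2.08.

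The promoters most like Usp18 over the 4 libraries, by the root mean square difference of log2 relative height among 10058 genes called in all 4, were Slc35c2 (0.0451), a membrane transporter, and Tomm5 (0.050), a subunit of the mitochondrial import pore. For Rsad2 they were Cenph (0.0918), a kinetochore protein, and Celsr3 (0.121), a cadherin. The measure covers 4 libraries only and says nothing of shared control.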

How the data were processed

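DNase-seq was analysed in the 4 libraries of a single group, with an interval list of each kind per library on mm10 (GRCm38), per the labels. Which aligner and peak caller made them is not given in the sources used here. Peaks carry a deposited signal value, a height scaled to library depth: all low heights were whole multiples of 1 step within 0.05, and the reciprocal of that step was read as tags in M. Footprints carry a deposited FDR (a q-value) of 0.01 in every entry, and cut-rate intervals a deposited q-value under 0.05. Since no counts were at hand for single sites, they carry no counting interval.

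Peaks of the longer list of each library were joined into sites on any overlap (1 bp or more), and those with a peak in 3 or 4 libraries were kept. Gene models were GENCODE mouse release 21, and sequence was the RefSeq FASTA of GRCm38.p6, the same build as mm10. Promoters were 1 kb around any annotated start and loci the gene body with 25 kb on each side. Uniqueness was the share of 32-base words that occur once in the genome. Values over libraries were compared with exact sign-flip permutation tests, two-sided, with Benjamini-Hochberg adjustment and a threshold of 0.05. Python 3.11.15, numpy 2.4.6, scipy 1.17.1 and pandas 2.3.3 were used. The joining of sites, promoter heights, the IRF-type motif search and word uniqueness were tested on simulated data, and the other steps were not.

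Named genes were all 10 members and, of each pathway list, up to 3 with the highest mean that every library called and up to 2, taken alphabetically, that none called. To these were added the 2 promoters most like each member called in all 4 libraries and neighbours whose start lies at a member's peak. Genes beyond this rule (Cd8a, Cd8b1, Cd4, Zbtb7b, Cd79a, Pax5, Ifng, Ifit3b, Cmpk2, Mvb12a and Ccdc194) were chosen after their values were seen. The 10 genes, the lists and the tests were chosen with earlier results of these data known. Alternatives were the shorter peak lists, other numbers of libraries, promoter windows, locus windows, motifs, margins and FDR limits, other scalings, an equal number of tallest peaks per library and each library left out. Replicates 1 and 2 alone and the motif with a spacer of 1 to 3 bases were added after seeing the data.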

Additional observations from a re-analysis of the deposited data

Results flagged for a closer look

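In 4 of 24 promoters and distal sites compared over the 4 libraries, a single library stood apart from the others by more than the limit for an outlying value among 4, and in all 4 of these it was replicate 4, with no peak and a relative height of 0. They were the Ifit2 promoter (0 in replicate 4, nearest other library 0.560), the Bst2 distal sites on chromosome 8 starting at 71528701 (0 against 0.196) and 71561481 (0 against 0.615), and the Ifit1 distal site on chromosome 19 starting at 34637041 (0 against 0.433). The limit would flag about 1 in 20 groups of 4 measured values by chance. That rate does not apply here, because the flagged values are 0 given to uncalled peaks. Replicate 4 was the shallowest library and listed no peak below a relative height of 0.158.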

How the results depend on the processing

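Counts that need 3 libraries rest on replicates 1 to 3, since replicate 4 called only 2 of the 10 promoters. Leaving out each library in turn, with all 3 others then needed, gave 2 to 8 open promoters, 1.5 to 4 sites per locus, 4 to 15 distal sites, 0 to 7 genes with promoter footprints and 2 to 8 with cut-rate intervals; the low values came without replicate 1, 2 or 3. Needing all 4 libraries gave 2 promoters, 1.5 sites per locus, 4 distal sites and 0 genes with footprints. With the same number of tallest peaks in every library, 4 of 10 promoters were called, against 44.4% of protein-coding genes. The median promoter height of 0.269 was 1.38 on the deposited, unscaled heights, which differ in scale between libraries. Sites per locus were 2 with 5 kb on each side and 11 with 100 kb. The Usp18 difference from the typical promoter turned from -0.12 to 0.26 when set against the sites called in all 4 libraries, and ranged from -0.21 without replicate 2 to 0.030 without replicate 4 when a library was left out. Of the other alternatives to these counts and medians, 38 stayed within 1.5 times or within 1 SD. The sign-flip tests could not pass 0.05 under any alternative, so they show nothing of stability. Depth limits what a missing peak in replicate 4 shows. No paired analysis was possible because the 4 libraries form a single group.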
